A study of Mus musculus with 12 samples.

Results

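The IFIT family, the interferon-induced proteins with tetratricopeptide repeats, was followed in prostate tumors of the mouse through 4 genes: Ifit1, Ifit2, Ifit3 and Ifit3b. The genes were chosen by symbol, and each symbol matched 1 of the 49315 Ensembl gene IDs in the count tables. Male C57BL/6J mice were 6 to 8 weeks old when TRAMP-C2 cells were injected subcutaneously into the right flank. Treatment of the tumors began at about 200 mm3. TRAMP-C2 is a single cell line derived from a prostate tumor of a transgenic mouse, so all 12 tumors share that origin and an immunocompetent host. The control group received 3 intratumoral doses of 50 µl HBSS, a buffered salt solution. The cyto-IL-15 group received 2 doses of 10 µg on days 0 and 4, cyto-IL-15 being interleukin-15 joined to a lipid-bearing peptide that anchors it in cell membranes. The ADU-S100 group received 3 doses of 50 µg on days 0, 2 and 4, ADU-S100 being a cyclic dinucleotide that activates STING. The combination group received both agents at these doses. Every tumor was collected on day 6, with 3 tumors per group.

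IFIT proteins bind RNA in the cytosol and restrict the translation of viral messages whose caps lack the methyl group that host messages carry. Ifit1 binds such capped RNA directly, Ifit3 belongs to the same family of tetratricopeptide repeat proteins, Ifit3b is a near-identical mouse copy of Ifit3, and Ifit2 binds RNA and has been linked to cell death. Their genes are kept low in resting cells and are switched on by IRF3 after STING or RNA sensing, or by the factor complex ISGF3, which includes STAT2 and IRF9, downstream of the type I interferon receptor, through promoter elements called ISREs.

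The 12 libraries held 48772204 to 103700199 counts assigned to genes (median 71218525). Tumors 13 (cyto-IL-15) and 28LL (combination) stood apart, with correlations of log2 levels of 0.899 to 0.958 to the other tumors against 0.970 to 0.994 among the remaining 10. The prostate markers Pbsn, Tmprss2 and Hoxb13 were at or near 0, with medians of 0.0, 0.0230 and 0.228 CPM, where CPM is a count scaled to the library total. Of 5 epithelial markers, Krt18, Krt19 and Epcam had medians of 0.150, 0.261 and 0.430 CPM, with highest values of 6.09, 511.3 and 11.9 CPM. Krt8 and Cdh1 were higher, with medians of 4.62 and 6.43 CPM and highest values of 144.0 and 22.9 CPM. The fibroblast-type gene Col1a1 had a median of 7512 CPM. In bulk tumor RNA, fewer cells of a type and less RNA per cell cannot be told apart.

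All 4 genes lie in 1 cluster on chromosome 19 (GRCm38). Ifit2 occupies chr19:34550694-34576419, Ifit3 chr19:34583531-34588731, Ifit3b chr19:34607970-34613401 and Ifit1 chr19:34640871-34650009, all on the plus strand. Their relatives Ifit1bl1 (chr19:34592888-34601968) and Ifit1bl2 (chr19:34617049-34640743) lie between them on the minus strand, and the 6 genes span 99.3 kb. The annotated starts of Ifit1bl2 and Ifit1 face away from each other across 128 bases. No exon base of the 6 genes overlapped an exon of another gene.

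The 250 bases upstream of each start are shown because an ISRE is the element through which these genes are switched on. Sequences are from RefSeq (GRCm38.p6, plus strand, 5′ to 3′), all 4 members matched an entry, and capitals mark the ISRE letters GAAANNGAAA or their reverse complement TTTCNNTTTC.
Ifit1, chr19:34640639-34640888: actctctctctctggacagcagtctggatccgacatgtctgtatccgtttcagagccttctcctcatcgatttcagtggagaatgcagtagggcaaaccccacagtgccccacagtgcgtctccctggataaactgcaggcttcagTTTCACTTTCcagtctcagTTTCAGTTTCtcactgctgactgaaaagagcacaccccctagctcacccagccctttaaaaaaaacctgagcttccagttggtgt
Ifit3, chr19:34583279-34583528: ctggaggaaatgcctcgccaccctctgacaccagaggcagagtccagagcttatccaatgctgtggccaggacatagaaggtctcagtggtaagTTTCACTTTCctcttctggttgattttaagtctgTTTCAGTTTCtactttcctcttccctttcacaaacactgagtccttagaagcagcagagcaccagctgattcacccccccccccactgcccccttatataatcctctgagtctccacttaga
Ifit3b, chr19:34607707-34607956: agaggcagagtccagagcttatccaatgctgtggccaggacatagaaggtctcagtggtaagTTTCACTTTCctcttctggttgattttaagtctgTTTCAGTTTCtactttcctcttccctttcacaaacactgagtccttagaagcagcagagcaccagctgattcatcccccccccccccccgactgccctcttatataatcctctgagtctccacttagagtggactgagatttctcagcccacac
Ifit2, chr19:34550444-34550693: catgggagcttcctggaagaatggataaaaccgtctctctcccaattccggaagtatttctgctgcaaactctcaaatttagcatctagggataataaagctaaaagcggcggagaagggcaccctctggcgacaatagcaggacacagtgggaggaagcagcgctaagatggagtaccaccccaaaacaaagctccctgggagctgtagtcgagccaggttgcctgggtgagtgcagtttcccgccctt

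Ifit1, Ifit3 and Ifit3b each held 2 ISREs. Those of Ifit1 lay at -104 to -95 and -85 to -76 from the RefSeq start, those of Ifit3 at -156 to -147 and -122 to -113, and those of Ifit3b at -188 to -179 and -154 to -145. In all 3 genes the distal match read TTTCACTTTC and the proximal match TTTCAGTTTC. The windows of Ifit3 and Ifit3b are offset because their annotated starts differ, and where they overlap they were identical at 216 of 224 aligned columns (96.4%). The minus-strand window of Ifit1bl2 overlaps that of Ifit1 and held the same pair of ISREs, at -70 to -61 and -51 to -42 from its own start. Ifit2 held no match in either of its 2 RefSeq windows (250 bases before to 50 after a start). Ifit2 spans 25.7 kb and sequence outside these windows was not searched, so whether it has an ISRE elsewhere was not tested. Among 32851 RefSeq windows of that length, 3.44% held at least 1 ISRE and 0.225% held 2 or more. The interferon-gamma response motif called GAS (TTCNNNGAA, its own reverse complement) was found once in Ifit2, at -241 to -233, in no window of the other 3 members, and in 8.30% of all windows; it overlapped no ISRE. These matches are descriptions of letters, not of bound factors.

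Ifit3 and Ifit3b are the only pair of members whose reads are hard to tell apart. Their coding sequences, 1209 bases each without the stop codon, differed at 11 positions (99.1% identical), whereas the other member pairs were 51.9% to 56.5% identical over aligned columns. The 90-base ungapped coding stretch in which they differed most (coding bases 199 to 288, capitals at the 4 differing bases) shows how little separates them.
Ifit3: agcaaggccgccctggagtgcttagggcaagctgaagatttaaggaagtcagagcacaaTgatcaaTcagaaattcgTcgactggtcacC
Ifit3b: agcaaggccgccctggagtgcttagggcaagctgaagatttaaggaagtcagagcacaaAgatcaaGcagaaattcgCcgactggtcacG

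Of all 100-base stretches of the Ifit3 transcript, 31.7% occurred identically in Ifit3b, and of 150-base stretches 18.5%. For Ifit3b the shares were 27.4% and 16%, for Ifit1 3.29% and 1.24% (shared with Ifit1bl2), and for Ifit2 no stretch of either length occurred in another gene. The values of Ifit3 and Ifit3b are therefore given as counted, with the division of shared reads between them uncertain.

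Levels are given as CPM with TMM scaling, which corrects for differences in RNA composition. Ifit1 stood at 14.5, 12.6 and 15.2 CPM in HBSS-treated tumors 19, 22R and 22LL. It stood at 10.3, 8.39 and 9.13 CPM in cyto-IL-15 tumors 9R, 13 and 20LL. ADU-S100 tumors 17LL, 18R and 22LR had 85.9, 57.3 and 106.7 CPM. Every ADU-S100 tumor was above every HBSS or cyto-IL-15 tumor. Combination tumors 20L, 22 and 28LL had 25.1, 37.6 and 159.9 CPM, which brackets the ADU-S100 group without reaching down to the controls.

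Ifit3 had 29.6, 17.1 and 22.9 CPM in the HBSS tumors, in the same tumor order, and 15.6, 7.58 and 17.1 CPM in the cyto-IL-15 tumors. The ADU-S100 tumors had 125.3, 115.2 and 199.3 CPM, and the combination tumors 35, 76.9 and 319.9 CPM. Unlike in the 2 genes described next, and as for Ifit1, no tumor given ADU-S100 fell among those without it, although combination tumor 20L was close to HBSS tumor 19.

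Its copy Ifit3b ran at a lower level, with 8.34, 4.53 and 6.11 CPM in HBSS tumors and 3.70, 1.96 and 5.17 CPM in cyto-IL-15 tumors. The ADU-S100 tumors had 32.9, 31.0 and 50.8 CPM and the combination tumors 8.30, 16.7 and 78.3 CPM. Here combination tumor 20L overlapped the HBSS group.

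Ifit2 differed less between the groups than the other 3 genes. It had 58.1, 47.9 and 59.5 CPM in HBSS tumors, 45.9, 29.6 and 52.1 CPM in cyto-IL-15 tumors, 82.6, 90.9 and 132.1 CPM in ADU-S100 tumors, and 57.6, 80.3 and 263.8 CPM in combination tumors. Combination tumor 20L again lay inside the HBSS range.

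**Figure D1:**
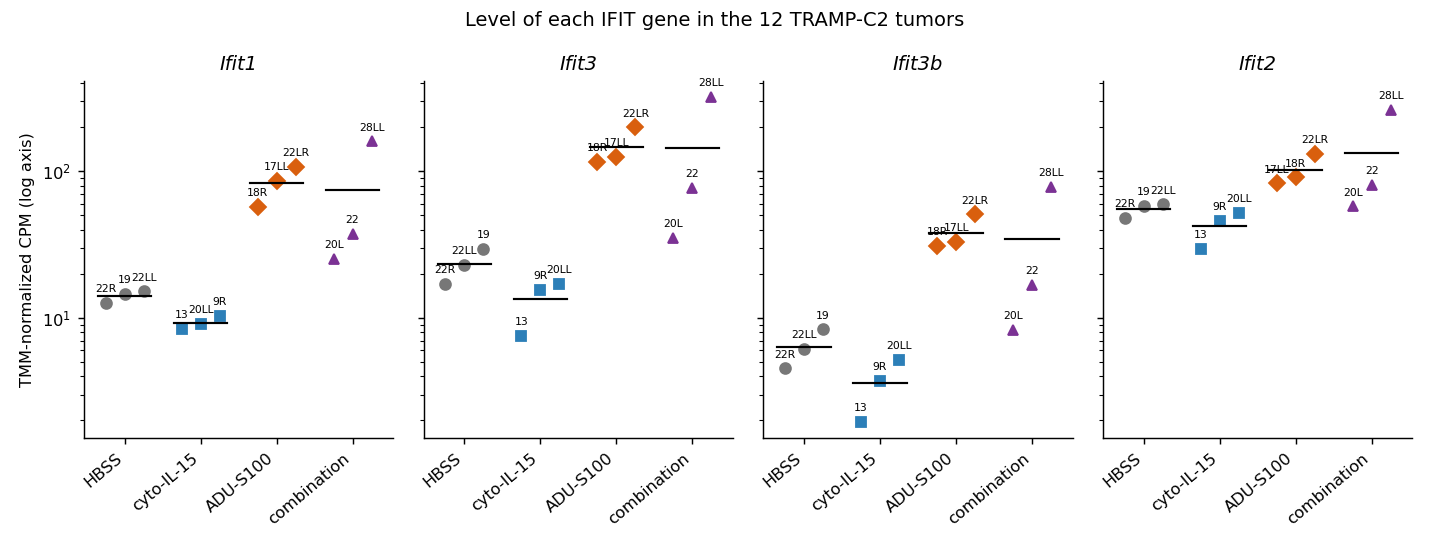
TMM-normalized CPM on a log axis for Ifit1, Ifit3, Ifit3b and Ifit2 in the 12 tumors, labelled by tumor, with a bar at the mean of each group of 3. The 3 ADU-S100 tumors lie above all HBSS and cyto-IL-15 tumors for each gene, and the combination tumors spread from 8.30 to 78.3 CPM for Ifit3b.

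The order of the combination tumors was the same for all 4 genes. Tumor 28LL was the highest of the 12 tumors for each member and tumor 20L the lowest of its group, with a ratio of highest to lowest of 6.36 for Ifit1, 4.58 for Ifit2, 9.14 for Ifit3 and 9.44 for Ifit3b. In the ADU-S100 group the same ratio was 1.60 to 1.86. The order 28LL, 22, 20L held for 4 of 4 members, 7 of 7 genes of the type I interferon receptor and ISGF3 list and 20 of 20 tested genes of a list of other interferon-stimulated genes, against 28.5% of all 20132 genes tested in the 12 tumors. It also held for 3 of 3 leukocyte, 6 of 6 NK and T cell and 5 of 5 skeletal muscle markers. Of monocyte, macrophage and epithelial markers it held for 4 of 5 each. It held for 2 of 3 endothelial, 1 of 4 neutrophil, 0 of 4 fibroblast and 0 of 2 prostate markers. The part of these cells in the order was not tested.

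Compared with HBSS, the RNA of Ifit1, Ifit3 and Ifit3b was higher in ADU-S100-treated tumors, by 5.93-fold, 6.34-fold and 6.06-fold. This comparison asks what the STING agonist did alone, and the comparisons that follow share its groups. The group mean of Ifit1 went from 14.1 ± 1.32 to 83.3 ± 24.8 CPM (SD, n = 3 each), that of Ifit3 from 23.2 ± 6.22 to 146.6 ± 45.9 CPM, and that of Ifit3b from 6.33 ± 1.92 to 38.2 ± 10.9 CPM. The log2 fold changes were 2.57 (SE 0.23) for Ifit1, 2.67 (SE 0.28) for Ifit3 and 2.60 (SE 0.28) for Ifit3b, with adjusted p of 0.00138, 0.00389 and 0.00323 (edgeR quasi-likelihood test, Benjamini-Hochberg over all genes tested). A gene was called where the adjusted p was under 0.05 and the log2 fold change above 1 in size, which 3 of 4 members met, all higher, against 2.75% of the 18911 genes tested.

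Ifit2 moved less. Its mean went from 55.2 ± 6.32 to 101.9 ± 26.5 CPM, a log2 fold change of 0.89 (SE 0.18, adjusted p = 0.0289), which passed the p threshold but not the fold threshold. With no fold threshold 4 of 4 members were higher, against 3.78% of genes. For all 4 members every ADU-S100 tumor exceeded every HBSS tumor, as it did for 16.4% of genes tested. All 12 tumors were also fitted together by edgeR, with 1 estimate of the spread that includes the combination tumors. In that fit 0 of 4 members were called in this comparison, and the share of all genes called is not given here. The log2 fold changes were 2.56, 2.66 and 2.59 for Ifit1, Ifit3 and Ifit3b, with adjusted p of 0.269, 0.321 and 0.351.

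Cyto-IL-15 alone gave lower point estimates for all 4 members, none of which was called. The log2 fold change against HBSS was -0.61 (SE 0.20) for Ifit1, -0.79 (SE 0.37) for Ifit3, -0.81 (SE 0.43) for Ifit3b and -0.38 (SE 0.24) for Ifit2, each with an adjusted p of 0.898. By edgeR 0 of 4 members and 0.0% of 18594 genes were called. At an unadjusted p under 0.05 the count was 1 of 4 members (Ifit1) against 3.80% of genes, and by DESeq2 0 of 4 against 0.580%. For Ifit1 and Ifit3 every cyto-IL-15 tumor was below every HBSS tumor, as for 5.68% of genes.

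Against cyto-IL-15, the log2 fold change with ADU-S100 was 3.14 (SE 0.27, adjusted p = 0.0319) for Ifit1, the 1 member of 4 that was called, against 0.0855% of 18708 genes called higher. Ifit3 had 3.43 (SE 0.39, adjusted p = 0.0541), Ifit3b 3.38 (SE 0.42, adjusted p = 0.0705) and Ifit2 1.24 (SE 0.28, adjusted p = 0.382). DESeq2 called 4 of 4 members higher, against 208 of 19833 genes. For all 4 members the ADU-S100 tumors lay above the cyto-IL-15 tumors, as for 9.38% of genes. The Ifit1 call was lost when any of tumors 9R, 20LL, 17LL, 18R or 22LR was left out (adjusted p from 0.0672 to 0.265), while without tumor 13 Ifit1, Ifit3 and Ifit3b were all called.

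The combination gave similar point estimates with a much wider spread. The mean level was 74.2 ± 74.5 CPM for Ifit1, 143.9 ± 153.8 CPM for Ifit3, 34.4 ± 38.2 CPM for Ifit3b and 133.9 ± 113.1 CPM for Ifit2 (SD, n = 3). Compared with HBSS the log2 fold changes were 2.42 (SE 0.71), 2.66 (SE 0.82), 2.47 (SE 0.85) and 1.30 (SE 0.58) in that order, with adjusted p of 0.205 to 0.292. By edgeR 0 of 4 members were called, as were 0.0% of 18565 genes. At an unadjusted p under 0.05 the count was 3 of 4, against 18.2% of genes, and DESeq2 called 3 of 4 (Ifit1, Ifit3 and Ifit3b), against 5.43%. For Ifit1 and Ifit3 every combination tumor was above every HBSS tumor, as for 15% of genes. Without tumor 28LL the log2 fold changes fell to 1.16 for Ifit1, 1.27 for Ifit3, 0.99 for Ifit3b and 0.32 for Ifit2, and Ifit1 was then called (adjusted p = 0.0345).

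Compared with cyto-IL-15, the combination gave log2 fold changes of 3.03 (SE 0.74) for Ifit1, 3.45 (SE 0.89) for Ifit3, 3.28 (SE 0.92) for Ifit3b and 1.68 (SE 0.62) for Ifit2, each with an adjusted p of 0.785. By edgeR 0 of 4 members and 0.0% of 18619 genes were called. At an unadjusted p under 0.05 the count was 4 of 4 against 4.97%, and DESeq2 called 3 of 4 (Ifit1, Ifit3 and Ifit3b) against 0.578%. Without tumor 28LL the log2 fold changes were 1.76 for Ifit1, 2.06 for Ifit3, 1.79 for Ifit3b and 0.69 for Ifit2. All 4 members were higher in each combination tumor than in each cyto-IL-15 tumor, as were 6.14% of genes.

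Between ADU-S100 and the combination no direction could be given. The log2 fold changes were -0.16 for Ifit1 (95% interval -1.81 to 1.49), -0.02 for Ifit3 (-1.83 to 1.80), -0.14 for Ifit3b (-2.00 to 1.72) and 0.40 for Ifit2 (-0.97 to 1.78). These intervals reach well past the fold threshold in both directions for Ifit1, Ifit3 and Ifit3b and upward for Ifit2, so they do not show that the treatments acted alike. By edgeR 0 of 4 members were called (0.0% of 18689 genes). At an unadjusted p under 0.05 the count was 0 of 4 (4.29% of genes), and by DESeq2 0 of 4 (0.0108%).

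**Figure D2:**
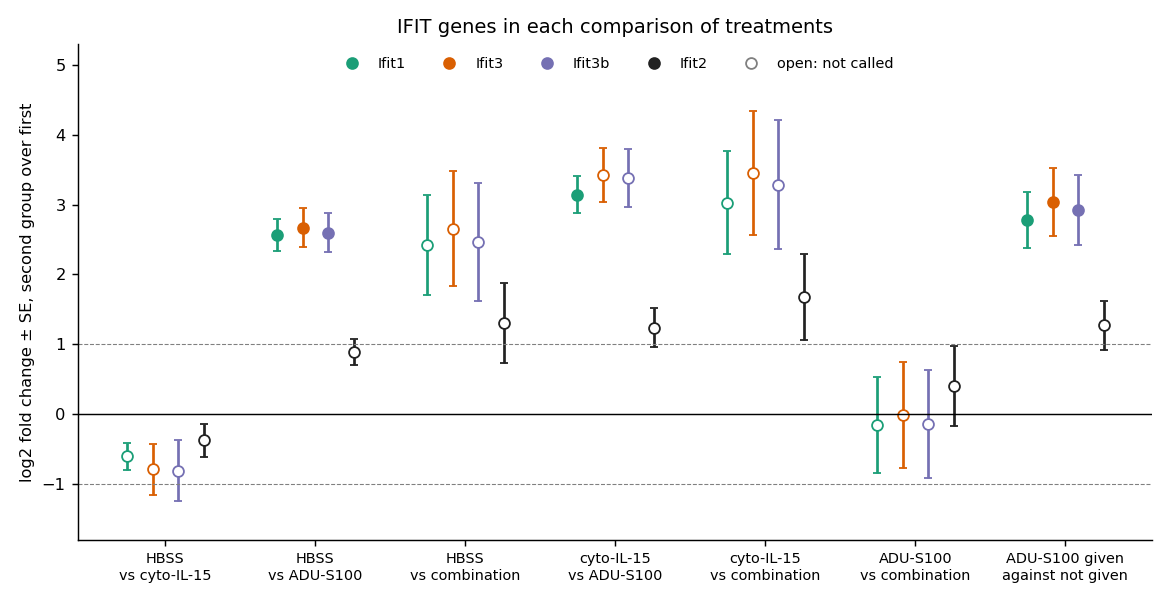
Log2 fold change with its standard error for the 4 IFIT genes in the 6 pairs of treatments and for ADU-S100 given against not given over 12 tumors. Filled points were called, dashed lines mark a log2 fold change of 1 in either direction, and Ifit2 (0.89 against HBSS) sits below the other 3 genes wherever ADU-S100 was added.

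Set over all 12 tumors with cyto-IL-15 as a second term, the 6 tumors given ADU-S100 had more Ifit1, Ifit3 and Ifit3b RNA than the 6 without it. The log2 fold changes were 2.78 (SE 0.40, adjusted p = 0.00844), 3.04 (SE 0.49, adjusted p = 0.0135) and 2.92 (SE 0.50, adjusted p = 0.0176), and that of Ifit2 was 1.27 (SE 0.35, adjusted p = 0.0778). Thus 3 of 4 members were called, against 0.993% of 20132 genes called higher. Ifit3b lost its call without tumor 22R, 22LL, 9R or 22LR (adjusted p from 0.0502 to 0.0594), and Ifit2 gained one without tumor 20L (adjusted p = 0.0451). With no filter on low counts only Ifit1 was called. DESeq2 called 4 of 4 members higher, against 818 of 21721 genes.

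An exact test on each gene gave the same direction. The mean log2 CPM, averaged over tumors with and without cyto-IL-15, was higher with ADU-S100 by 2.52 for Ifit1, 1.11 for Ifit2, 2.78 for Ifit3 and 2.66 for Ifit3b. Each had an exact two-sided permutation p of 0.005, the smallest that the 400 arrangements within strata allow, and an adjusted p of 0.005 over the 4 genes. The difference for Ifit2 was 0.86 without and 1.37 with cyto-IL-15, and for Ifit1 2.52 and 2.53.

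The interaction, whether the ADU-S100 difference changed when cyto-IL-15 was given too, was not resolved. Its log2 estimates were 0.44 (SE 0.77) for Ifit1, 0.77 (SE 0.67) for Ifit2, 0.76 (SE 0.91) for Ifit3 and 0.66 (SE 0.95) for Ifit3b, each with an adjusted p of 1.0 in edgeR. The counts were 0 of 4 by edgeR (0.0% of 20132 genes), 0 of 4 at an unadjusted p under 0.05 (2.29% of genes) and 0 of 4 by DESeq2 (0.0% of genes). Without tumor 28LL all 4 estimates turned negative, from -0.80 to -0.19.

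The members did not rise in proportion. Ratios of read counts within a tumor need no library scaling, so they compare the genes directly. The Ifit2 to Ifit1 count ratio was 4.00, 3.79 and 3.92 in the HBSS tumors, 4.44, 3.53 and 5.71 in the cyto-IL-15 tumors, 0.961, 1.59 and 1.24 in the ADU-S100 tumors and 2.29, 2.13 and 1.65 in the combination tumors. The highest ratio among tumors given ADU-S100 was below the lowest among those without it. The log2 ratio fell by 1.41 with ADU-S100 (exact stratified permutation test, p = 0.005, adjusted p = 0.01 over 6 member pairs).

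The Ifit3 to Ifit2 count ratio was 0.509, 0.358 and 0.384 in HBSS tumors, 0.339, 0.256 and 0.328 in cyto-IL-15 tumors, 1.52, 1.27 and 1.51 in ADU-S100 tumors and 0.608, 0.958 and 1.21 in combination tumors. It was higher with ADU-S100 by 1.67 on the log2 scale, or 3.18-fold, and the Ifit3b to Ifit2 ratio by 1.55, or 2.93-fold (exact permutation p = 0.005 and adjusted p = 0.01 for each). In the Ifit3 to Ifit2 ratio the combination tumors lay between the ADU-S100 tumors and the tumors without it.

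The other 3 genes kept closer proportions. The Ifit3 to Ifit1 log2 ratio differed by 0.26 (exact permutation p = 0.275, adjusted p = 0.33), the Ifit3b to Ifit1 ratio by 0.14 (exact p = 0.55, adjusted p = 0.55) and the Ifit3b to Ifit3 ratio by -0.12 (exact p = 0.055, adjusted p = 0.0825). Of the reads counted to Ifit3 or Ifit3b, Ifit3b took 20.9% to 22.0% in HBSS tumors, 19.2% to 23.2% in cyto-IL-15 tumors, 20.3% to 21.2% in ADU-S100 tumors and 17.8% to 19.7% in combination tumors. The 95% Wilson interval, which covers counting error only, was widest in tumor 13, at 17.4% to 24%, and narrowest in tumor 28LL, at 19.2% to 20.1%.

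**Figure D3:**
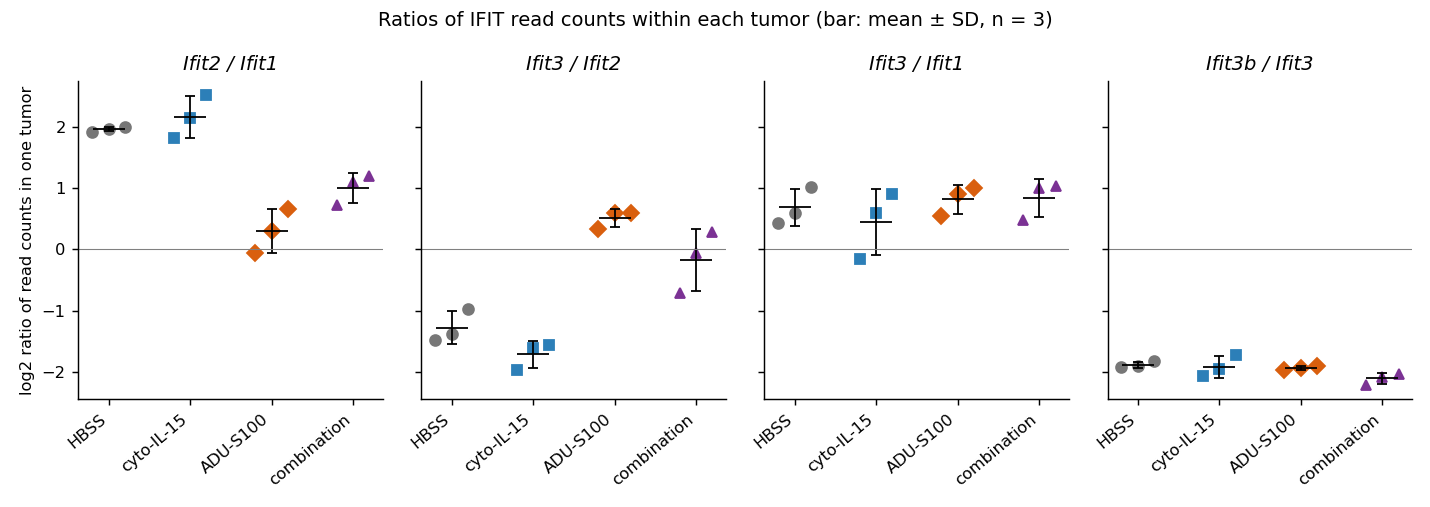
Log2 ratio of read counts of a pair of IFIT genes within each tumor, by group, with the mean and SD of 3 tumors. The Ifit2 to Ifit1 and Ifit3 to Ifit2 ratios separate tumors given ADU-S100 from the rest, while Ifit3 to Ifit1 and Ifit3b to Ifit3 overlap between groups.

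Per kilobase of exon, where genes can be compared with each other, Ifit2 and Ifit3 led in HBSS tumors, with 14.1 ± 1.61 and 13.3 ± 3.57 CPM per kb (SD, n = 3), which overlapped, ahead of Ifit1 with 5.31 ± 0.497 and Ifit3b with 3.16 ± 0.958. In ADU-S100 tumors Ifit3 led with 84.0 ± 26.3 CPM per kb, with no overlap with the next gene. Ifit1 with 31.4 ± 9.34, Ifit2 with 25.9 ± 6.75 and Ifit3b with 19.1 ± 5.46 CPM per kb followed, and among these 3 neighbours in the order overlapped. The 4 genes together took 0.00809% to 0.0111% of counts in HBSS tumors, 0.00422% to 0.00832% in cyto-IL-15 tumors, 0.0293% to 0.0495% in ADU-S100 tumors and 0.0128% to 0.0820% in combination tumors.

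The relatives Ifit1bl1 and Ifit1bl2, whose protein products are less well described, were expressed at low levels. Ifit1bl1 had 2.38, 1.34 and 2.07 CPM in HBSS tumors and 3.48, 4.58 and 27.9 CPM in ADU-S100 tumors, so its log2 fold change of 2.64 (SE 0.92, adjusted p = 0.164) rested mainly on tumor 22LR. In the combination group it had 2.62, 6.26 and 49.0 CPM, the last in tumor 28LL. Ifit1bl2, which shares the Ifit1 upstream region, went from 0.569, 0.790 and 0.361 CPM with HBSS to 1.98, 1.37 and 2.23 CPM with ADU-S100, a log2 fold change of 1.71 (SE 0.36, adjusted p = 0.0295). In combination tumors 20L, 22 and 28LL Ifit1bl2 had 0.583, 0.638 and 2.82 CPM. With ADU-S100 against HBSS, Ifit1bl2 was thus called by edgeR and Ifit1bl1 was not. DESeq2 called 2 of 2 higher, against 784 of 20364 genes, with an adjusted p of 0.0473 for Ifit1bl1.

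The genes upstream of the IFIT family were then read in the ADU-S100 and HBSS tumors. In the list from STING to the interferon regulatory factors, 1 of 8 tested genes was called, with a median log2 fold change of 0.33 against 0.03 over all genes. That gene was Irf7, the factor that amplifies interferon production, which rose from 37.5 ± 16.4 to 276.6 ± 38.2 CPM (log2 fold change 2.89, SE 0.37, adjusted p = 0.0113). Irf1 (0.55, SE 0.12, adjusted p = 0.0341) stayed under the fold threshold, and Irf5 (0.63, SE 0.17, adjusted p = 0.0593) and the DNA sensor Cgas (0.33, SE 0.12, adjusted p = 0.137) were not called.

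Interferon transcripts themselves were scarce. Ifnb1, which encodes interferon-beta, had 1, 0 and 1 reads in HBSS tumors, 5, 0 and 0 in cyto-IL-15 tumors, 10, 11 and 26 in ADU-S100 tumors and 3, 2 and 25 in combination tumors. Its counts were too low for the edgeR test against HBSS, and over the 12 tumors its log2 fold change with ADU-S100 was 3.06 (SE 0.96, edgeR adjusted p = 0.108). DESeq2 gave 2 listed ligands an adjusted p against HBSS and called 2 higher, against 784 of 20364 genes. Over the 12 tumors it also called 2 of 2 higher, against 818 of 21721 genes. No listed interferon-alpha gene exceeded 11 reads in a tumor. Ifng, which encodes interferon-gamma, was the 1 ligand tested against HBSS by edgeR and rose from 0.404 ± 0.107 to 2.05 ± 0.121 CPM (log2 fold change 2.34, SE 0.29, adjusted p = 0.00414).

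In the receptor and ISGF3 list, Stat2 and Irf9, which encode parts of ISGF3, rose, and the receptor chain and kinase genes were not called. Stat2 rose from 55.4 ± 7.15 to 162.3 ± 20.1 CPM (log2 fold change 1.55, SE 0.14, adjusted p = 0.00116) and Irf9 from 43.8 ± 5.23 to 109.2 ± 4.32 CPM (1.32, SE 0.12, adjusted p = 0.00116). The receptor chains Ifnar1 and Ifnar2 had log2 fold changes of -0.34 (SE 0.10, adjusted p = 0.068) and 0.12 (SE 0.09, adjusted p = 0.463). The receptor kinases Jak1 and Tyk2 had -0.21 (SE 0.13, adjusted p = 0.355) and -0.004 (SE 0.10, adjusted p = 0.987).

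Of 10 RNA sensor genes 2 were called, both higher. Dhx58, which encodes LGP2, rose by a log2 fold change of 1.98 (SE 0.21, adjusted p = 0.00245) and Zbp1, a sensor of Z-form nucleic acid, by 2.24 (SE 0.29, adjusted p = 0.00887). Ifih1, which encodes MDA5, and Rigi had 0.87 (SE 0.14) and 0.77 (SE 0.12), both with an adjusted p of 0.0114, values close to that of Ifit2. Of 4 feedback genes 2 were called, the ubiquitin-like modifier Isg15 (2.97, SE 0.23, adjusted p = 0.00111) and its protease Usp18 (2.19, SE 0.24, adjusted p = 0.00279). Socs1 (0.68, adjusted p = 0.0783) and Socs3 (0.37, adjusted p = 0.156) were not.

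Of 20 tested genes in the list of other interferon-stimulated genes, 17 were called, all higher, with a median log2 fold change of 2.03. The 4 with the smallest p were Rtp4 (2.63, SE 0.17), Xaf1 (2.11, SE 0.15), Oasl2 (1.95, SE 0.15) and the tetherin gene Bst2 (1.86, SE 0.15), with adjusted p of 0.000695, 0.000695, 0.000823 and 0.000888. In the 12-tumor model 16 of these 20 were called higher. The IFIT median was 2.58 in the comparison with HBSS.

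IFIT proteins act on the cap and on the initiation factor eIF3, and 0 of 18 genes for cap methylation and eIF3 subunits were called with ADU-S100 by edgeR and 0 of 18 by DESeq2. At an unadjusted p under 0.05 there was 1, against 4523 of the 18911 genes tested. It was the cap methyltransferase gene Cmtr2 (log2 fold change -0.46, SE 0.13, adjusted p = 0.0714). The median of the list was 0.01. The next 3 by p were Eif3g (0.25, SE 0.14), Eif3k (0.20, SE 0.11) and Eif3d (0.18, SE 0.14), with adjusted p of 0.311, 0.316 and 0.456.

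**Figure D4:**
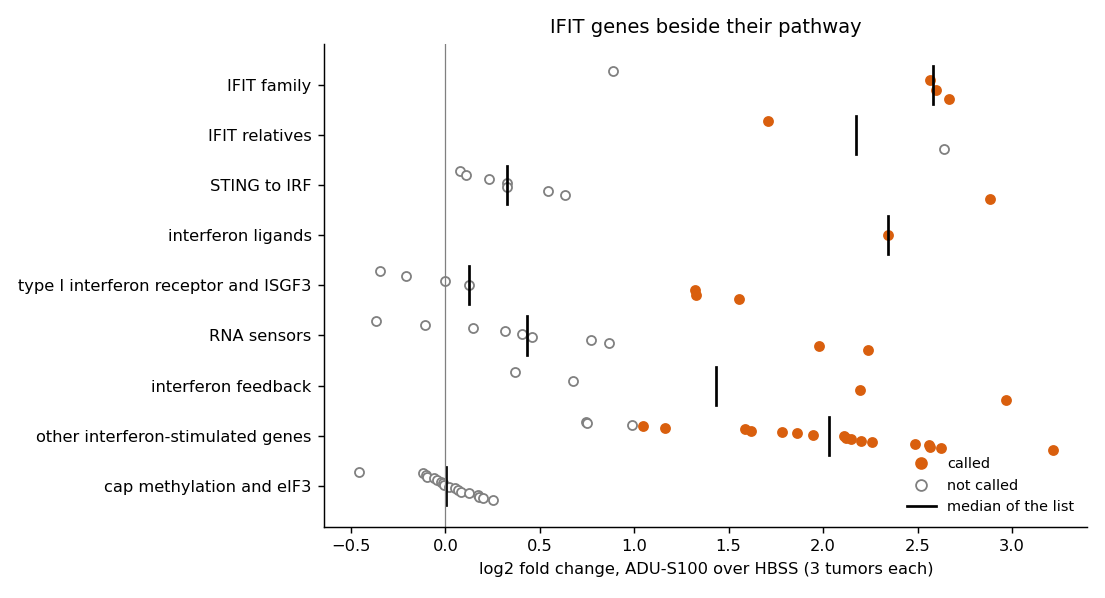
Log2 fold change of ADU-S100 over HBSS for each tested gene of 9 lists, with called genes filled and a line at each median. The IFIT family (median 2.58) lies beside the other interferon-stimulated genes (2.03), and cap methylation and eIF3 genes (0.01) lie around 0.

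The genes whose pattern was most like each member were ranked by the SD, over the 12 tumors, of the log2 ratio of the gene to the member, among 20132 genes. For Ifit1 they were Rsad2 (SD 0.35), Isg15 (0.35), Phf11d (0.36), Oas2 (0.38) and Usp18 (0.38). For Ifit3 they were Phf11d (0.33), Ifi206 (0.33), Ifi27l2a (0.37), Ly6a (0.38) and Oas1g (0.38), and for Ifit3b Phf11d (0.31), Ifi206 (0.36), Rsad2 (0.40), Ly6a (0.41) and Ifi27l2a (0.42). For Ifit2 they were Trim30a (0.11), Trim30d (0.11), H2-T24 (0.14), Gm5431 (0.17) and Ifi207 (0.17). No gene was on both the Ifit2 list and that of another member. The median SD over all genes was 1.51 for Ifit1, 0.88 for Ifit2, 1.70 for Ifit3 and 1.62 for Ifit3b, a measure that is smaller for a member that varies less. Between members the SD was 0.15 for Ifit3 and Ifit3b, 0.33 to 0.35 for Ifit1 with either of them, and 0.80 to 0.94 for Ifit2 with any of the 3.

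Beyond the cluster, 8 other genes within 300 kb were tested with ADU-S100 against HBSS. Of these 3 were called, counting either direction, against 667 of the 18911 genes tested. Ch25h, the cholesterol 25-hydroxylase gene, which lies before Ifit2, had a log2 fold change of 2.35 (SE 0.20, adjusted p = 0.000952). Gm26902 (1.01, SE 0.25, adjusted p = 0.0467) overlaps Ch25h on the other strand at chr19:34474808-34475135. Without strand information, reads in that stretch cannot be told apart. Slc16a12, a transporter gene past Ifit1, had -1.55 (SE 0.28, adjusted p = 0.0171). Lipa, between Ch25h and Ifit2, had 0.11 (SE 0.16, adjusted p = 0.72), and the death receptor gene Fas had 0.97 (SE 0.17, adjusted p = 0.0176), just under the fold threshold. These genes were chosen by position.

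**Figure D5:**
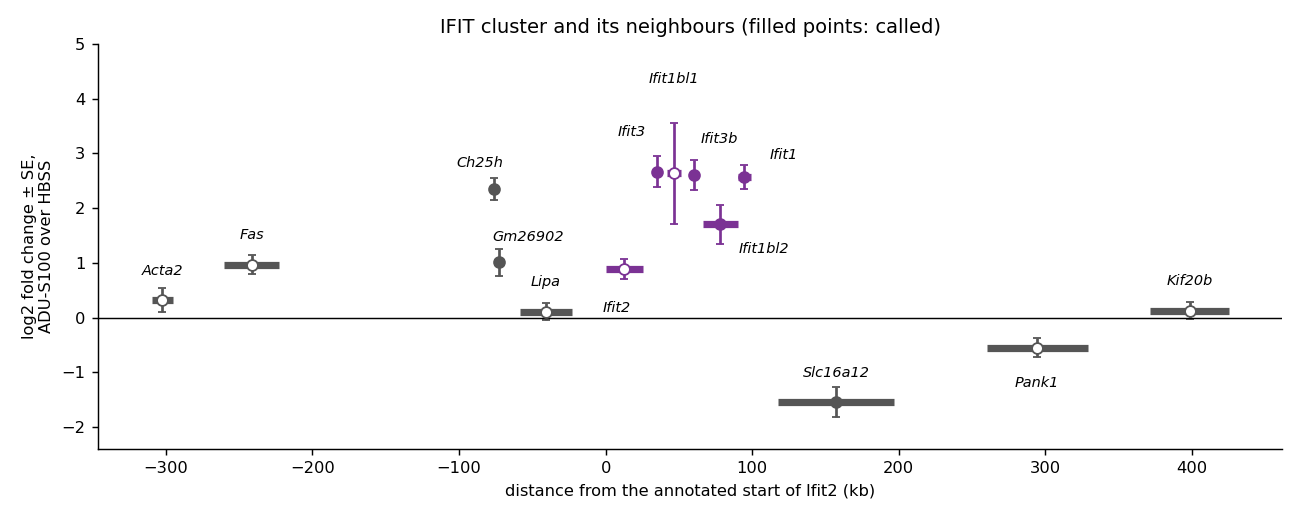
Log2 fold change with its standard error, ADU-S100 over HBSS, for tested genes by distance in kb from the annotated start of Ifit2, with bars for gene bodies and filled points for called genes. IFIT genes are in purple, with Ifit2 (0.89) at the near end of the cluster and Ifit1 (2.57) at the far end.

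Markers of other cell types also differed between the same groups. Against HBSS, ADU-S100 tumors had 3 of 5 monocyte markers called higher (Ly6c2, Plac8 and Chil3), 2 of 4 tested neutrophil markers (S100a8 and S100a9), 2 of 6 NK and T cell markers (Ncr1 and Klrb1c), 3 of 5 skeletal muscle markers (Acta1, Ckm and Myh4) and 0 of 3 leukocyte markers by edgeR or DESeq2 (1 of 3 at an unadjusted p under 0.05). The macrophage marker Mrc1 was called lower. Some markers of these lists went the other way. The log2 fold change was positive for 3 of 5 monocyte, 5 of 6 NK and T cell and 3 of 4 neutrophil markers. The lowest values were -0.58, -0.82 and -0.27 in that order. At an unadjusted edgeR p under 0.05, 1 monocyte and 1 NK and T cell marker were lower. Of 5 macrophage markers, 3 were lower and 1 higher at that threshold. Over all genes tested in this comparison, 4523 of 18911 passed that p threshold, counting either direction. Summed monocyte markers ran from 502 to 713 CPM in HBSS, 553 to 1370 in cyto-IL-15, 526 to 847 in ADU-S100 and 562 to 1812 CPM in combination tumors. Summed neutrophil markers ran from 16.8 to 21.3, 13.3 to 24.5, 20.1 to 45.4 and 26.8 to 246.4 CPM in that order. Summed NK and T cell markers ran from 23.6 to 39.5, 18.5 to 102.7, 48.0 to 64.7 and 51.8 to 240.1 CPM, and summed muscle markers from 2.76 to 3.78, 3.15 to 521.6, 117.3 to 1267 and 36.0 to 3122 CPM. The neutrophil marker Ly6g did not exceed 0.660 CPM. The part of these cells in the IFIT levels was not tested.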

How the data were processed

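RNA of 12 TRAMP-C2 tumors, 3 per treatment, was sequenced from NEBNext Ultra II libraries, a kit name that does not state strand. Per the submitters' processing notes the authors used bcl2fastq 2.20, Trimmomatic 0.36, STAR 2.5.2b and featureCounts of Subread 1.5.2, with builds GRCm38 and mm10, and deposited raw read counts per Ensembl gene, not normalized. Whether reads shared between near-identical genes were counted is not given in the sources used here. GENCODE vM21 paired 48970 of 49315 IDs with a symbol. Groups came from the treatment labels.

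For every pair of groups edgeR 4.0.16 was run on those 6 tumors alone (R 4.3.3; filterByExpr with a minimum count of 10, TMM scaling, glmQLFit and glmQLFTest, Benjamini-Hochberg over all genes). An additive and an interaction model used all 12 tumors. A fold change is the second group over the first, with SE taken from the F statistic. Exact tests permuted ADU-S100 labels within strata of cyto-IL-15. Alternatives were DESeq2 1.42.0, its size factors, no filter, no fold threshold, leaving out tumors, a joint fit and another pseudocount (0.5 CPM by default). Scripts were tested on simulated data. Replicates are tumors. The edgeR and DESeq2 p-values set a group difference against the spread between tumors, and the exact p-values rank it among rearranged labels. The members and gene lists were chosen with earlier results of these data known. The named genes were, by rule, the members and relatives, the receptor and ISGF3 list, up to 4 genes with the smallest p against HBSS from each other pathway list, and the 5 genes most like each member. Ifit1c, sought as a relative, is not analysed here. Some genes of the receptor and ISGF3 list and of the prostate markers are not reported here.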

Additional observations from a re-analysis of the deposited data

How the results depend on the processing

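With ADU-S100 against HBSS 3 members were called, 3 or 4 when a tumor was left out, and 0 with all 12 tumors in a joint fit. Against cyto-IL-15 1 was called, and 4 with DESeq2 (208 of 19833 genes called higher). The count was 3 with no filter on low counts and 3 without tumors 13 and 28LL. It was 0 in the joint fit and 0 to 3 when a tumor was left out. For the combination against HBSS 0 were called, 3 with DESeq2, 1 without tumors 13 and 28LL and 0 to 1 when a tumor was left out. Against cyto-IL-15 it was 0 and 3 with DESeq2. For ADU-S100 given against not given 3 were called, and 4 with DESeq2 (818 of 21721 genes called higher). The count was 1 with no filter on low counts and 2 to 4 when a tumor was left out. The joint fit estimates the spread over all 12 tumors together. Why the counts differed between settings was not tested. The share of all genes called is not given here for the joint fit, the fits without a filter or those leaving out tumors.

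For ADU-S100 against the combination, none called, leaving out a tumor moved the log2 fold change from -1.41 to 0.25 for Ifit1, -0.56 to 0.76 for Ifit2, -1.39 to 0.44 for Ifit3 and -1.61 to 0.31 for Ifit3b, and Ifit2 had -0.56 without tumors 13 and 28LL. For the interaction the ranges were -0.80 to 0.88, -0.19 to 1.16, -0.60 to 1.25 and -0.80 to 1.15 in the same order, and -0.87, -0.39, -0.88 and -1.10 without tumors 13 and 28LL. The Ifit3b to Ifit1 log2 ratio ranged from -0.017 to 0.30 and that of Ifit3b to Ifit3 from -0.16 to -0.071, with an adjusted p of 0.0225 without tumor 9R (exact test). The exact tests of the 4 levels and of the 3 ratios with Ifit2 kept their direction and an adjusted p under 0.05 with each tumor left out. Of the 5 genes most like Ifit3b, 3 stayed with a pseudocount of 2 CPM. No paired analysis was possible because the labels give no replicate numbers. Some tumor names share a number across groups (22R, 22LL, 22LR and 22, and 20LL and 20L), and what it marks is not stated. Low read counts limit what can be said of Ifnb1 and the interferon-alpha genes, not of the members. Why those counts were low was not tested.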
